A study of Mus musculus with 12 samples.

Results

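CpG methylation was compared between the leukemic double mutant and the Tet2 knockout in mouse LSK cells, the lineage-negative, Sca1-positive and cKit-positive fraction of bone marrow that holds blood stem and early progenitor cells. The comparison takes 6 of the 12 libraries of the series: 3 of the double mutant, whose titles carry the prefix L, and 3 of the Tet2 knockout, chosen by title. All animals were C57BL/6 and 6 months old. The leukemic double mutant is labelled Tet2(-/-) Nras(G12D), and the Tet2 knockout is labelled Tet2(-/-), so by these labels the groups share the loss of Tet2 and differ in the Nras allele and in leukemia. The leukemic libraries alone also carry the tag BMT in their descriptions, which the labels do not explain, so any difference in handling that it stands for cannot be told apart from leukemia. Both alleles were conditional and restricted to hematopoietic tissue, per the series design, and the driver of recombination is not given in the sources used here. The other 6 libraries, 3 of Nras(G12D) alone and 3 of the double mutant without leukemia, took no part in the fits and serve as a reference outside the comparison. Wild-type libraries were not analysed here. The labels do not say whether replicates came from separate animals, so the p-values measure only the spread between these libraries.

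Methylation of cytosine in CpG pairs is copied to the new strand at each cell division, and most CpGs outside dense promoters carry it. Tet2 is an enzyme that oxidises methylcytosine and so starts its removal, and its loss is common in myeloid malignancies. Nras is a small GTPase that passes growth factor signals to the Raf, MEK and ERK kinases, and the G12D change keeps it active. Bisulfite sequencing reads methylcytosine and its first oxidised form, hydroxymethylcytosine, alike, so a percent methylated here covers both.

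Of the 6 pairs among the 4 groups, these groups lay farthest apart. Over 81077 tiles of 1000 bp measured in all 12 libraries, their group means differed by 6.00 percentage points on average regardless of sign. The next pair, leukemic and nonleukemic double mutant, differed by 5.36 points, and the closest pair, nonleukemic double mutant and Nras(G12D), by 2.37 points. Within the comparison, Tet2 knockout libraries differed from each other at single CpGs by 3.75 to 5.08 points on average. The leukemic libraries differed from each other by 7.0 to 7.95 points, and from the Tet2 knockout libraries by 6.70 to 8.89 points.

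The libraries held 96300485 to 199736369 reads over listed cytosines, and the median coverage of a tested CpG was 69 to 144 reads. Mitochondrial CpGs, which are taken to be unmethylated, read as methylated at 0.364% to 0.924%. The tables do not read the Tet2 deletion or the Nras allele, and methylation is not expression, so neither the genotypes nor the sorted cells could be checked against their labels by level. Some CpGs separated the groups completely. At 24 CpGs, 0 of them on chromosome 3, the leukemic libraries were under 10% and the Tet2 knockout libraries over 70%. The reverse was seen only on chromosome 3, which carries both Tet2 and Nras. At 10 CpGs the leukemic libraries were at 73.8% to 100% and the Tet2 knockout libraries at 0% to 9.09%, and all 10 lay on chromosome 3, between 5.70 Mb on one side and 6.28 Mb on the other side of the Tet2 start. There the Nras(G12D) libraries, whose label names no Tet2 allele, were at 58.7% to 100%, as the leukemic libraries were. The nonleukemic double mutants, with the same genotype label as the leukemic group, were at 0% to 8.11% at all but 1 of these CpGs, as the Tet2 knockout was, and at up to 44.7% at that 1. At these CpGs, which were picked for the difference between the compared groups, the leukemic libraries resembled the group labelled without Tet2 loss, and the loss of Tet2 in them rests on the label alone. Inherited sequence that differs between the groups around Tet2 and a change in methylation cannot be told apart at these CpGs, and counts are therefore also given without chromosome 3. Tet2 knockout replicates 1 and 2 listed 360 and 251 positions on the Y chromosome and the other 4 libraries 2 to 18, so these 2 libraries differ from the rest in a way the labels do not describe.

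The leukemic libraries were less methylated than the Tet2 knockout libraries, and the loss lay at partly and highly methylated CpGs. Over 944027 tested autosomal CpGs the mean was 32.7%, 31.4% and 32.2% in the leukemic libraries and 34.8%, 35.2% and 34.7% in the Tet2 knockout. The groups did not overlap. The difference was -2.78 points (SE 0.427, n = 3 per group), with a two-sided exact permutation p of 0.1, the smallest that 3 against 3 libraries allow. With CpGs weighted by their coverage it was -6.41 points (SE 1.59), more than 1.5 times as large. The weighted means were 23.5%, 22.6% and 22.1% in the leukemic libraries and 27.8%, 32.2% and 27.4% in the Tet2 knockout. Weighted means also depend on how the reads of each library are spread over the CpGs.

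CpGs were divided by their mean level in the 6 libraries outside the comparison, so that the classes do not use the values compared. At the 572196 CpGs under 20%, methylation was 1.29%, 1.21% and 1.11% in the leukemic libraries, against 1.14%, 1.48% and 1.31% in the Tet2 knockout, and the groups overlapped (difference -0.108 points, exact permutation p = 0.4). At the 63318 CpGs at 20 to 80%, methylation was 48.4%, 45.5% and 46.8% in the leukemic libraries, against 56.7%, 59.4% and 56.1% in the Tet2 knockout. This class differed by -10.5 points (SE 1.30, n = 3 per group, exact permutation p = 0.1), more points than the other classes. At the 284153 CpGs over 80%, methylation was 90.2%, 86.7% and 89.2% in the leukemic libraries, against 95.2%, 95.1% and 94.6% in the Tet2 knockout. There the difference was -6.27 points (SE 1.07, n = 3 per group, exact permutation p = 0.1). In the partly methylated class Nras(G12D) was at 52.2% ± 0.277 and the nonleukemic double mutant at 55.2% ± 0.392 (SD, n = 3 each), between the groups compared. They were at 94.1% and 94.6% in the class over 80%, and at 1.05% and 1.18% in the class under 20%. These 6 libraries set the classes, so their own levels in them are a description. In bulk DNA a different mix of cells within the LSK gate and a change within each cell cannot be told apart.

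**Figure D1:**
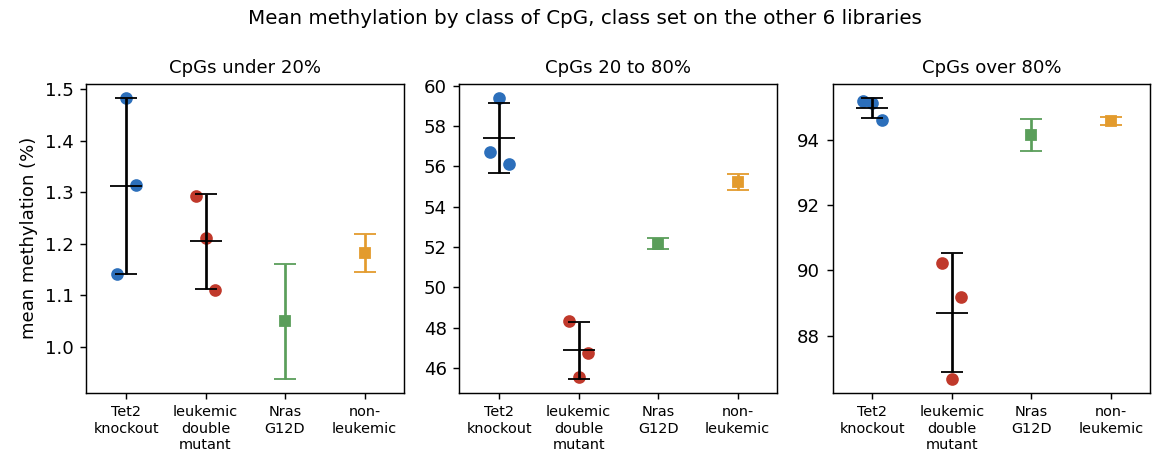
Mean methylation (%) of CpGs in 3 classes set on the other 6 libraries, with 1 point per library and mean and SD bars for Tet2 knockout and leukemic double mutant, and mean with SD for Nras(G12D) and the nonleukemic double mutant (n = 3 each, vertical axes not starting at 0). At 20 to 80% the leukemic libraries lie between 45.5% and 48.4% and the Tet2 knockout libraries between 56.1% and 59.4%.

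No single CpG passed the test. Calls of CpGs required at least 25 points between the group means and an adjusted p below 0.05, from a quasi-binomial model of the reads with moderated dispersion. The lowest adjusted p was 0.698, and limma on log ratios of the reads called 0 as well. At an unadjusted p under 0.05, 48899 CpGs had a lower and 13248 a higher level in the leukemic group.

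Neighbouring CpGs were therefore read together in 83883 tiles of 1000 bp with at least 3 tested CpGs (median 5), where a call needed at least 10 points and an adjusted p below 0.05. Methylation fell in 57 tiles, 0.068% of those tested, and rose in none, 0.0%. At an unadjusted p under 0.05, 14232 tiles were lower and 1142 higher. The 57 tiles lay on 15 chromosomes, and in each of them every leukemic library was below every Tet2 knockout library. Their difference had a median of -49.4 points and ran from -78.4 to -21.7, with adjusted p from 0.0100 to 0.0495. These calls rest on all 6 libraries. Without any 1 of them 0 tiles were called, as with limma, and without chromosome 3 the model called 65 lower tiles and 1 higher.

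A wider set of tiles was described without a p-value. In 10024 tiles, 11.9% of those tested, all leukemic libraries were below all Tet2 knockout libraries and the means differed by at least 10 points. The reverse held in 268 tiles, 0.319%. Leaving out any 1 library gave 11187 to 14830 lower tiles and 438 to 702 higher tiles. Without the 2 libraries with Y chromosome positions, 13617 tiles were lower and 1353 higher. Non-overlap is easier to reach with fewer libraries, so these larger counts are no measure of robustness. Of all tiles, 73.2% were lower in the leukemic group, with a median difference of -2.57 points.

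Most of these lower tiles held fewer than 10 tested CpGs, and few lay within 1 kb of a placed gene start. They were spread over the genome. They made up 1.11% of the tiles under 20% in the 6 other libraries, 24.9% of those at 20 to 80% and 15.3% of those over 80%. By number of tested CpGs, they were 16.6% of tiles with 3 to 4, 12.7% with 5 to 9, 4.33% with 10 to 19 and 0.383% with 20 or more. Within 1 kb of a placed gene start they were 1.34% of tiles, and beyond it 12.8% to 15.1%. Only starts with several matched CpGs could be placed, so starts poor in CpGs are missed. Tiles near starts and tiles with 20 or more tested CpGs are mostly unmethylated, with means of 5.38% and 3.45% in Tet2 knockout. A fall of 10 points can hardly be read there, and how far these shares follow the level was not tested. Among tiles at 20 to 80% the share was 20.2% within 1 kb, 28.6% at 1 to 10 kb, 26.3% at 10 to 100 kb and 21.5% beyond. Single chromosomes ranged from 10.2% on chromosome 3 to 13.1% on chromosome 15. Among tiles over 80%, the share was 12.6% in the megabases with the fewest tested CpGs (13102 tiles) and 16.8% in those with the most (10414 tiles).

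**Figure D2:**
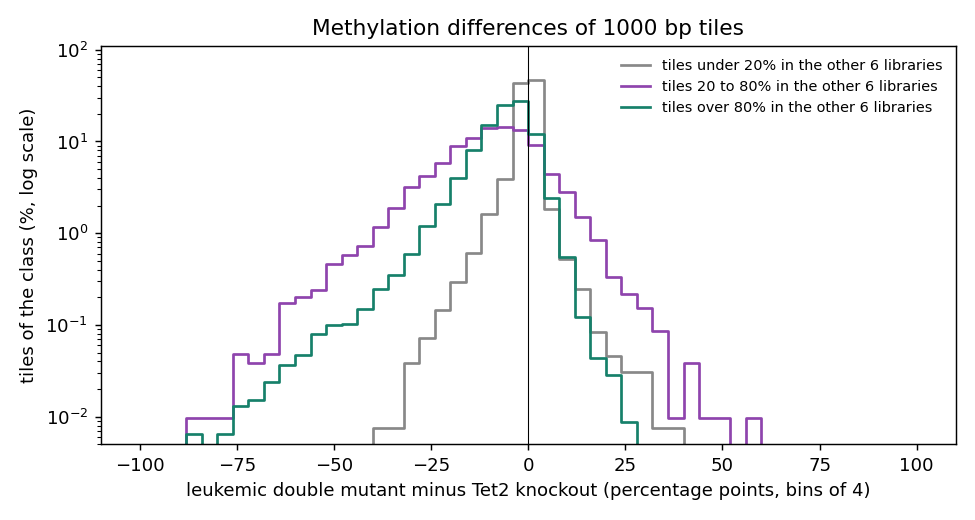
Share of tiles (%, log scale) by their difference in methylation, leukemic double mutant minus Tet2 knockout (percentage points, bins of 4), for tiles under 20%, at 20 to 80% and over 80% in the other 6 libraries. Of tiles at 20 to 80%, 18.8% were lower by at least 20 points and 0.870% higher by as much. Of tiles over 80%, these shares were 5.05% and 0.0432%.

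The leukemic libraries did not lose methylation at the same tiles only. The range over 3 libraries had a median of 8.50 points per tile in the leukemic group and 4.55 points in the Tet2 knockout. It exceeded 20 points in 17.2% of tiles in the leukemic group and in 6.26% in the Tet2 knockout. In 696 tiles all 3 leukemic libraries were more than 20 points below the Tet2 knockout range, in 1735 tiles 2 of them were, and in 7564 tiles 1 was. The tiles low in 1 library alone numbered 2016 for leukemic replicate 1, 2204 for replicate 2 and 3344 for replicate 3. One Tet2 knockout library also stood apart: in 1334 tiles replicate 2 alone was more than 20 points above the leukemic range, against 308 and 312 for replicates 1 and 3. Replicate 2 had the lowest coverage of the 6 libraries and 22.8% of its tested CpGs at exactly 100%, against 13.3% and 13.5% in the other Tet2 knockout libraries. Its part in the results was not tested beyond leaving it out.

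Gene starts were placed on the build of the tables from RefSeq promoter sequences, which allowed promoters to be read directly. Of 32851 promoter sequences, 11319 were used. Placement needed at least 8 matched CpGs, or 5 between placed neighbours, so promoters with few CpGs are left out. The promoter shares below cover only the placed promoters. Of 9661 promoter windows (1000 bp on each side of a start, at least 3 tested CpGs), 92.4% were under 10% methylated in both groups. Methylation fell in 3 promoters, 0.0311% of those tested, and rose in none. They belong to Arhgef10l, a guanine nucleotide exchange factor, Muc20, a membrane mucin, and Ccdc116, a coiled-coil protein. The promoters of Arhgef10l and Muc20, and that of Rhd, are shown because tested CpGs within the sequence itself carry the difference. Rhd encodes the Rh blood group protein of red cells and was chosen after its values were seen. The sequences are those of RefSeq on GRCm38.p6, 250 bases before to 50 after the start, with the CpGs measured in all 6 libraries in capitals.
Arhgef10l, chr4:140665856-140666155, minus strand: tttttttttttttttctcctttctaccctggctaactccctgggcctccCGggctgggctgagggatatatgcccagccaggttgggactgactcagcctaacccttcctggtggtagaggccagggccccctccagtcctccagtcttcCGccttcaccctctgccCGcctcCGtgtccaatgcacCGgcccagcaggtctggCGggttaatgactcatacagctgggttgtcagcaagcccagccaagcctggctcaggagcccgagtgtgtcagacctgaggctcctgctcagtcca
Muc20, chr16:32797386-32797685, minus strand: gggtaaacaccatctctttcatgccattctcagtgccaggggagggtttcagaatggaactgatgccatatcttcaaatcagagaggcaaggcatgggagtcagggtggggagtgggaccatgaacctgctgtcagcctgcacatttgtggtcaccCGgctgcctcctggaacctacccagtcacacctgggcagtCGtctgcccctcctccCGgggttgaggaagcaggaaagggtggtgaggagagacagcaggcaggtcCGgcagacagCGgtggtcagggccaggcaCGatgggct
Rhd, chr4:134864286-134864585, plus strand: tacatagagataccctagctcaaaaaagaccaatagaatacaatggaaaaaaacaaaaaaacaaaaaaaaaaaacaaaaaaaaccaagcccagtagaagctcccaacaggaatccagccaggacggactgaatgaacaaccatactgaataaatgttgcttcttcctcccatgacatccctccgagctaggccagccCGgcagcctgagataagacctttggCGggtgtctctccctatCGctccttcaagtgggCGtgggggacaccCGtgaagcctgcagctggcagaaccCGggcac

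The Arhgef10l sequence holds 7 CpGs, of which 6 were measured. Over these 6 methylation was 22.5%, 17.3% and 9.48% in the leukemic libraries, against 65.0%, 61.8% and 58.0% in the Tet2 knockout. At each of the 6 CpGs, all leukemic libraries were below all Tet2 knockout libraries. The CpG 63 bp before the start was the lowest in both groups, at 3.41% against 39.3%. The whole window, with 18 CpGs, was at 42.2%, 37.5% and 36.6% in the leukemic libraries and at 77.5%, 77.1% and 73.2% in the Tet2 knockout (difference -37.1 points, SE 2.23, adjusted p = 0.0260). In this window Nras(G12D) was at 62.3% ± 2.68 and the nonleukemic double mutant at 57.6% ± 9.45 (SD, n = 3 each), both between the groups compared. Over the 6 CpGs of the sequence, Nras(G12D) was at 34.2%, 40.6% and 43.0%. The nonleukemic double mutant was at 43.7%, 41.4% and 16.4% over them, so its replicate 3 lay within the leukemic range.

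In Muc20 all 6 CpGs of the sequence were measured, 3 before and 3 after the start. Methylation was 31.7%, 34.0% and 42.7% in the leukemic libraries over them, against 72.0%, 72.3% and 72.8% in the Tet2 knockout. At 5 of the 6 the groups did not overlap, and at the CpG 94 bp before the start they did. The window differed by -31.3 points (SE 2.73, adjusted p = 0.0440), from 79.7% ± 1.99 in Tet2 knockout to 48.4% ± 4.29 in the leukemic group (SD, n = 3 each). The nonleukemic double mutant was at 81.7% ± 2.74 and Nras(G12D) at 63.8% ± 4.38.

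In the Rhd promoter 6 of 8 CpGs were measured, from 53 bp before to 43 bp after the start. Methylation was 37.5%, 17.8% and 30.1% in the leukemic libraries over these CpGs, against 89.6%, 97.2% and 92.3% in the Tet2 knockout. At each of the 6 CpGs the groups did not overlap. The window was at 38.1% ± 12.1 against 94.2% ± 2.72 (SD, n = 3 each), a difference of -56.1 points (SE 7.17) that did not pass the test, with adjusted p = 0.0820. In the Rhd sequence the letters AGATAA, a core that GATA factors bind, occurred 1 time on either strand, starting 43 bp before the start, and they occurred in 11.2% of all 32544 distinct RefSeq promoter sequences. Neither of the other sequences held them. A match is a description of the sequence, not of binding.

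**Figure D3:**
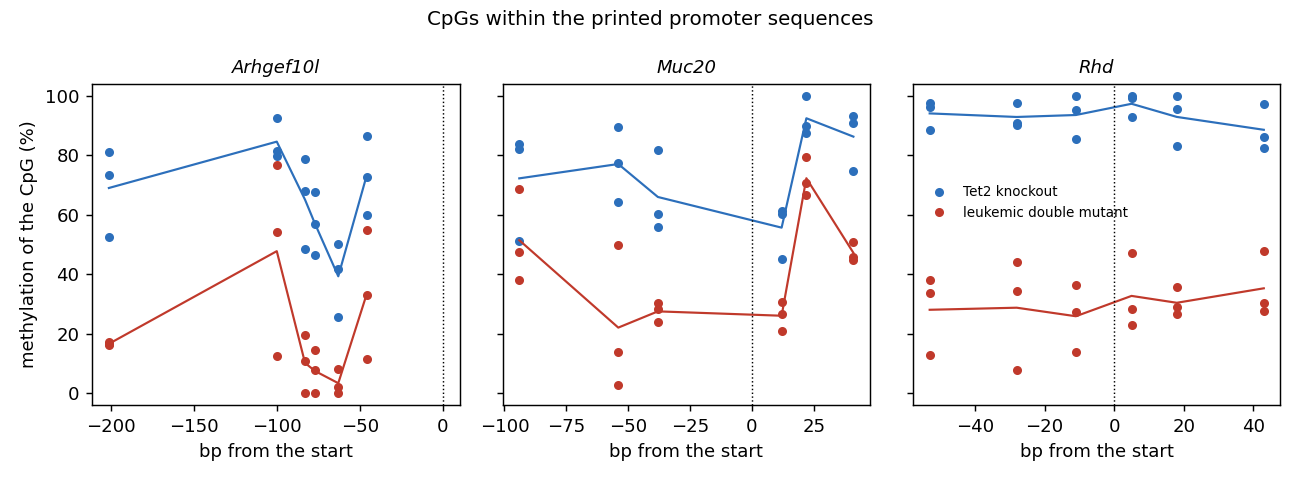
Methylation (%) of each CpG measured within the promoter sequences of Arhgef10l, Muc20 and Rhd, by distance from the start (bp), with 1 point per library and lines through the group means. At Rhd the 6 CpGs lie between 82.4% and 100% in the Tet2 knockout libraries and between 7.74% and 47.8% in the leukemic libraries.

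The Ccdc116 promoter differed in its upstream part, and no CpG farther than 25 bp downstream of the start was tested in the window. From 452 bp upstream to past the start every CpG was at a mean of 3.08% or less in both groups, so its sequence is not shown. Farther upstream the leukemic mean was lower at most CpGs, with overlap at some. The CpG 964 bp from the start was at 13.3%, 12.4% and 10.3% in the leukemic libraries and at 93.1%, 100% and 96.9% in the Tet2 knockout. The CpGs 886 and 933 bp upstream overlapped, with 47.8%, 30.1% and 95.3% against 77.6%, 81.6% and 78.8% at the first. The window was at 3.52% ± 0.638 against 21.4% ± 1.46 (SD, n = 3 each), a difference of -17.9 points (SE 0.921, adjusted p = 0.00236). Without any 1 library the Ccdc116 call was kept in 5 of 6 cases and lost without leukemic replicate 1. The calls of Arhgef10l and Muc20 were lost without any 1 library. All 3 were lost with windows of 500 bp and with limma.

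Promoters without overlap and with at least 10 points between the groups numbered 92 lower (0.952%) and 6 higher (0.0621%). Among the lower ones chosen after their values were seen, Mfsd2b, a sphingosine-1-phosphate exporter of red cells and platelets, was at 17.4%, 10.1% and 15.8% against 55.5%, 71.1% and 46.6% (adjusted p = 0.160). Its difference came from CpGs 380 to 448 bp after the start. Those at 380 to 415 bp were lower without overlap. The CpG at 448 bp overlapped, at 80.2%, 3.09% and 22.8% in the leukemic libraries against 76.0%, 100% and 57.0%. CpGs measured around the start were at or near 0% in every one of the 6 libraries. Slc41a3, a magnesium transporter, was at 67.8%, 31.4% and 63.9% against 87.2%, 94.1% and 90.2%. Rbmxl2, a germline RNA-binding protein, was among the 6 higher promoters, with 51.5%, 53.4% and 59.2% in the leukemic libraries and 43.1%, 42.6% and 42.7% in the Tet2 knockout (adjusted p = 0.281).

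Each tile is given with the nearest placed start, and a nearer gene may not have been placed. Called tiles at Arhgef10l, Muc20 and Ccdc116 overlap the called promoter windows of these genes, so those tile and promoter calls share reads. The named tiles, in mm9 coordinates, are the 10 that fell most among called tiles of 5 or more tested CpGs. The largest was chr16:30186000-30186999, which lies 96.8 kb downstream of the start of Lrrc15, a leucine-rich repeat membrane protein. Methylation was 10.2%, 3.49% and 0% in the leukemic libraries there, against 80.7%, 80.2% and 81.6% in the Tet2 knockout (6 CpGs, 288 to 750 reads, difference -76.3 points, SE 3.03, adjusted p = 0.0408). The nonleukemic double mutant was at 79.9% ± 6.54, as high as the Tet2 knockout, and Nras(G12D) at 54.4% ± 4.71 (SD, n = 3 each). A tile 6.54 kb upstream of Tatdn2, a putative deoxyribonuclease (chr6:113640000-113640999), was at 8.21%, 6.06% and 0.659% against 85.0%, 69.3% and 86.6%.

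The tile chr6:88067000-88067999 lies 33.0 kb downstream of the start of Rpn1, a subunit of the oligosaccharyltransferase, and 76.4 kb upstream of the start of Gata2. Gata2 is a transcription factor needed by blood stem cells, and a distal enhancer of it is known far upstream in the mouse. Whether these tiles lie in that enhancer was not tested. The tile was at 16.2%, 3.90% and 20.8% in the leukemic libraries and at 81.5%, 94.2% and 85.4% in the Tet2 knockout (7 CpGs, difference -73.4 points, SE 6.31, adjusted p = 0.0478). A second called tile, chr6:88070000-88070999, lies 31.9 kb upstream of the nearest placed start, that of the predicted gene Gm38856, and 73.4 kb upstream of the Gata2 start. It was at 38.5%, 27.1% and 27.8% against 96.7%, 96.5% and 97.0% (adjusted p = 0.0319). The tile beside the first, 77.4 kb upstream, was at 18.1%, 4.12% and 19.4% against 74.7%, 84.0% and 68.9% and missed the test at adjusted p = 0.0517. In all 3 tiles every leukemic library was below every library of the other groups.

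At the Gata2 start the tiles were near 0% in both groups, so a fall could not be read there. The tiles 0.385 kb before and 0.615 kb after its start were at 1.16% and 0.193% in the leukemic group and at 1.71% and 0.120% in the Tet2 knockout. Between the called tiles and the start, tiles 61.4, 59.4 and 53.4 kb upstream overlapped between the groups, with 41.4% against 40.7%, 92.1% against 95.7% and 60.4% against 58.1%. The tile 32.4 kb upstream was lower without overlap, at 91.4%, 85.5% and 77.8% against 93.6%, 93.2% and 94.0% (adjusted p = 0.364). Single CpGs between them were lower without overlap too, such as the CpG 57786 bp upstream, at 0%, 21.6% and 22.7% against 44.4%, 45.3% and 100% with as few as 11 reads. A tile 29.8 kb downstream of a placed Gata2 start, with 3 CpGs, was at 61.6%, 45.8% and 32.0% against 89.9%, 100% and 93.9% and was not called (adjusted p = 0.115).

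**Figure D4:**
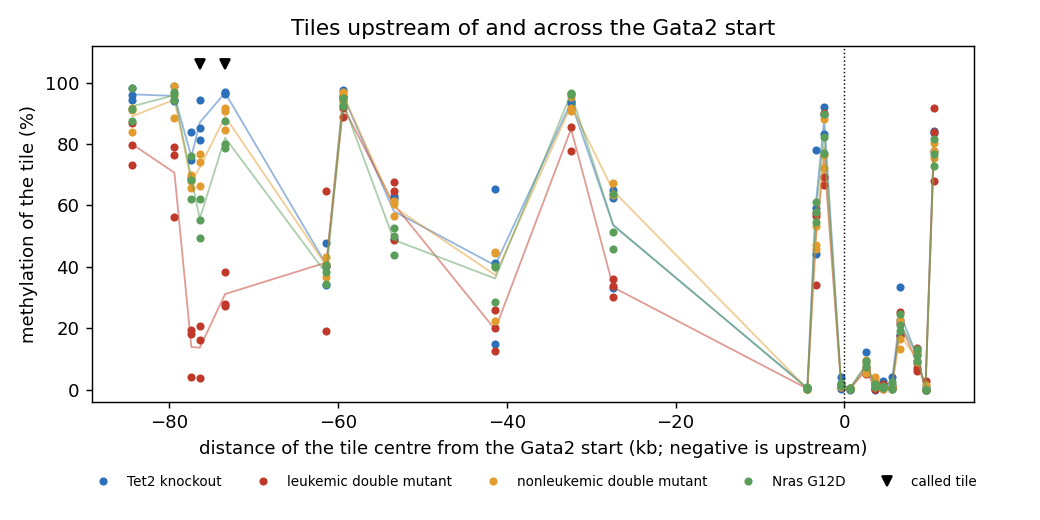
Methylation (%) of 1000 bp tiles by distance of the tile centre from the Gata2 start (kb, negative is upstream), with 1 point per library, lines through group means for all 4 groups, and triangles at called tiles. The leukemic libraries lie between 3.90% and 38.5% at the called tiles 76.4 and 73.4 kb upstream, and all groups are near 0% at the start.

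Other named tiles lay near genes of varied function. The tile 13.0 kb upstream of Tubb3, a tubulin of neurons (chr8:125922000-125922999), was at 23.8%, 21.2% and 22.0% against 87.3%, 96.2% and 91.7%. A tile with 16 CpGs 666 kb from the nearest placed start, that of the ethanolamine kinase Etnk1 (chr6:143781000-143781999), was at 30.9%, 33.0% and 21.0% against 96.1%, 92.5% and 95.8% (adjusted p = 0.0106). The tile 20.3 kb downstream of Dohh, which hydroxylates deoxyhypusine on the translation factor eIF5A, was at 15.4%, 14.0% and 28.1% against 85.8%, 85.8% and 76.0%. In each of these tiles every leukemic library was below every Tet2 knockout library.

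The tile 48.6 kb upstream of Ppp2r5a, a regulatory subunit of protein phosphatase PP2A (chr1:193269000-193269999), had the lowest p of the tested tiles. It was at 4.36%, 6.44% and 3.97% in the leukemic libraries and at 56.3%, 61.6% and 62.4% in the Tet2 knockout (7 CpGs, 828 to 2686 reads, difference -55.2 points, SE 2.06, adjusted p = 0.0100). The tiles near Fam222a, at 22.2% ± 6.84 against 82.9% ± 4.32, and Ccdc116, at 12.7% ± 2.97 against 67.1% ± 5.24 (SD, n = 3 each), complete the 10. The 2 adjacent called tiles, chr19:5756000-5757999, lay 30.2 and 31.2 kb upstream of the placed start of Ehbp1l1, an adaptor protein. They fell by 46.1 and 50.5 points.

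**Figure D5:**
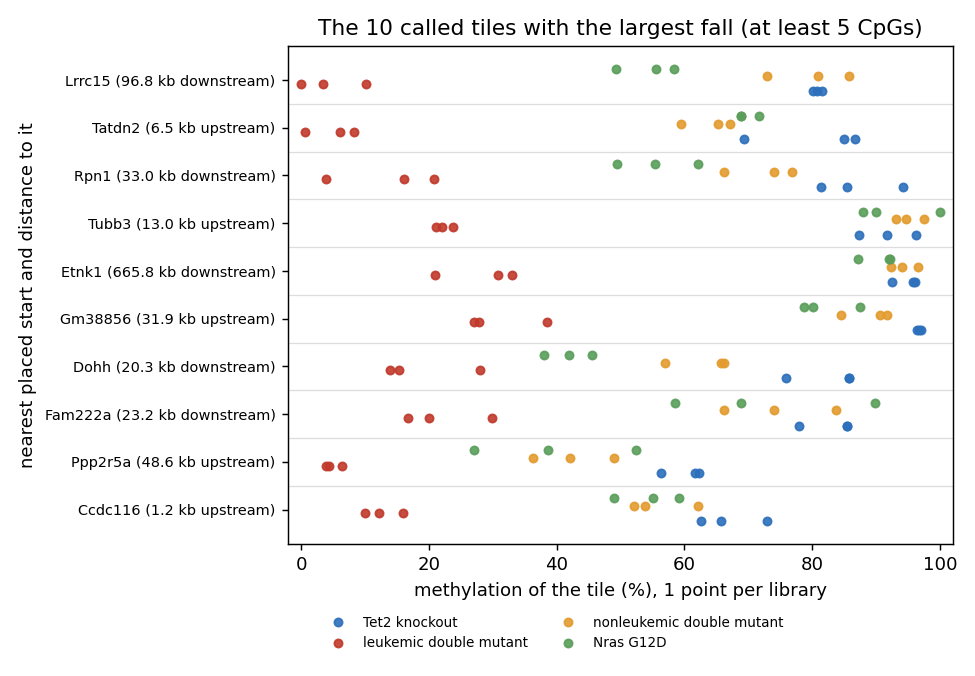
Methylation (%) of the 10 named tiles with 1 point per library in all 4 groups, labelled by the nearest placed start and the distance of the tile centre from it. Leukemic libraries lie between 0% and 38.5% and Tet2 knockout libraries between 56.3% and 97.0%.

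Among the remaining called tiles, 3 are named after their values were seen for the role of the gene. A tile 19.7 kb downstream of the start of Stat5a, a transcription factor activated by cytokine receptors, was at 45.3%, 40.8% and 46.8% against 92.5%, 89.4% and 93.0% (chr11:100741000-100741999, adjusted p = 0.0319). A tile 13.5 kb downstream of the start of E2f8, a repressor of cell cycle genes, was at 19.4%, 21.4% and 19.1% against 97.4%, 100% and 95.3% (adjusted p = 0.0106). A tile 107 kb upstream of a start of Runx3, a transcription factor of blood cells, was at 54.2%, 59.3% and 62.6% against 94.3%, 95.2% and 91.0% (adjusted p = 0.0458).

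The 57 tiles were also read in the libraries that took no part in the fit. Averaged over the tiles, methylation was 28.7%, 26.4% and 28.1% in the leukemic libraries, against 77.1%, 77.7% and 76.7% in the Tet2 knockout. The nonleukemic double mutant was at 70.8% ± 0.805 and Nras(G12D) at 65.3% ± 2.66 (SD, n = 3 each). All nonleukemic libraries were above all leukemic libraries in each of the 57 tiles, and all Nras(G12D) libraries in 56. Of the 83058 tiles with reads in every library, this held in 16555 and 12165. All Nras(G12D) libraries were below all Tet2 knockout libraries in 32 of the 57, and all nonleukemic libraries in 26. Of the 83058 tiles, this held in 7401 and 5894. Tiles chosen for a low leukemic and a high Tet2 knockout value lean toward other libraries between them, so these counts are a description. Of the 430 tested CpGs in the tiles, 418 were lower in the leukemic group and 322 without overlap (74.9%, against 4.25% of all tested CpGs), which describes the tiles and is no test, since they were called on the same reads.

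No tile rose by the test. The tiles with the largest rise among those without overlap and with at least 5 CpGs were listed after their values were seen. The largest rise, 6.41 kb downstream of the start of Txnrd1, a thioredoxin reductase, was from 34.4%, 6.10% and 46.1% in the Tet2 knockout to 80.4%, 81.7% and 49.5% in the leukemic libraries (difference 41.7 points, SE 15.9, adjusted p = 0.174). The tile 12.7 kb downstream of the start of Shisa8, a transmembrane protein that modulates glutamate receptors, was at 35.8%, 43.7% and 48.4% in the leukemic libraries and at 1.19%, 2.67% and 6.59% in the Tet2 knockout (5 CpGs, adjusted p = 0.0595). The nonleukemic double mutant was at 8.99% ± 4.20 and Nras(G12D) at 5.42% ± 4.79 there (SD, n = 3 each). The next, near 4930455B14Rik, Gm36809 and Npy5r, were higher by 35.1, 33.3 and 33.2 points, with adjusted p of 0.244, 0.175 and 0.212. A pair from farther down the list was picked for the genes. A tile 21.2 kb downstream of the start of Hic1, a transcriptional repressor silenced by methylation in several cancers, was at 24.8%, 44.8% and 44.2% against 5.57%, 0.300% and 11.1% (adjusted p = 0.119). Another Hic1 tile, 15.2 kb downstream, was lower without overlap, at 39.5%, 35.3% and 33.5% against 58.1%, 71.6% and 57.1% (adjusted p = 0.101). A tile near Trim47, a ubiquitin ligase, was at 76.8%, 76.7% and 83.2% against 32.9%, 47.8% and 61.5% (adjusted p = 0.141).

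Lists of genes of blood development, Ras signalling and DNA methylation were read at their promoters and at the tiles within 100 kb for which they were the nearest placed gene. Of 169 listed genes 92 were placed, and of these 89 promoters were tested. None was called in either direction (background 0.0311% of promoters), and 1 of the 89, Il3ra, was lower by at least 10 points without overlap, which is near the 0.952% of all promoters. Il3ra, the alpha chain of the interleukin-3 receptor, was at 20.6%, 17.6% and 16.1% in the leukemic libraries and at 26.3%, 43.9% and 21.4% in the Tet2 knockout (adjusted p = 0.519). There the nonleukemic double mutant was at 16.8% ± 2.13, as low as the leukemic group, and Nras(G12D) at 22.8% ± 5.88 (SD, n = 3 each). Most listed promoters were unmethylated in both groups, among them Kit at 0.293% against 0.101%, Flt3 at 0.103% against 0.489% and Nras at 0.632% against 0.169%. For the defining markers of LSK cells and of other cells that the gate could hold, 2 of 16 promoters were tested, Kit and Flt3, so the share of other cells was not tested.

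No tile of a listed gene was called either, with a lowest adjusted p of 0.0570. Of all 57214 tiles near placed genes 48 were called, so a count of 0 over lists of 16 to 177 tiles is no result about them. Lower tiles without overlap and with at least 10 points made up 11.5% of all tiles near placed genes. By list, they were 9 of 45 tiles of the erythroid and megakaryocyte genes, 18.8% for the cell type markers (3 of 16), 13.8% for the myeloid genes (8 of 58) and 13.6% for the cytokine receptors (8 of 59). It was 12.6% for the tumour suppressors (14 of 111), 11.7% for the enzymes of DNA methylation (12 of 103), 10.5% for the stem cell transcription factors (10 of 95) and 10.2% for the Ras and MAPK genes (18 of 177). It was 9.26% for the chromatin regulators (5 of 54) and 8.51% for the lymphoid genes (12 of 141). All 3 lower tiles of the cell type markers were near Kit and are counted again among the cytokine receptors. The erythroid and megakaryocyte share, from tiles near 4 genes, was the highest and was not tested. Most of the list shares are near the background and are no result about a list.

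The listed genes with the largest differences are given by value only, since none passed the test. A tile 33.5 kb downstream of the start of Kit, the receptor for stem cell factor, was at 31.8%, 22.8% and 53.8% in the leukemic libraries and at 95.8%, 89.7% and 97.0% in the Tet2 knockout (10 CpGs, difference -58.0 points, SE 9.49, adjusted p = 0.0570). A tile 24.5 kb downstream of the start of Zfpm1, the cofactor of Gata1 also called Fog1, was at 57.1%, 34.3% and 34.3% against 94.5%, 99.1% and 89.7% (adjusted p = 0.0691). In both, the means of Nras(G12D) and of the nonleukemic double mutant lay between 92.4% and 94.5%.

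In the Ras pathway, a tile 33.7 kb upstream of Sos1, the exchange factor that loads Ras with GTP, was at 36.8%, 18.2% and 17.3% against 70.5%, 81.6% and 79.2% (adjusted p = 0.0831). Among the enzymes, a tile 20.2 kb upstream of a placed start of Dnmt3a, a de novo DNA methyltransferase, was at 8.33%, 17.9% and 9.50% against 51.9%, 40.9% and 39.5% (adjusted p = 0.0748). A tile 5.74 kb downstream of the start of Idh2, which makes the cosubstrate of the Tet enzymes, was at 35.9%, 54.5% and 61.3% against 96.3%, 91.5% and 94.6% (adjusted p = 0.0737). The leukemic libraries were the lower in each of these tiles without overlap.

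Among the myeloid and lymphoid lists, a tile 38.8 kb upstream of Irf8, a transcription factor of monocytes and dendritic cells, was at 8.68%, 8.83% and 6.06% against 40.5%, 47.0% and 30.5% (adjusted p = 0.0634). Nearer the Irf8 start, tiles 8.24 and 9.24 kb downstream were higher without overlap, at 81.8% ± 0.629 against 60.5% ± 9.87 and at 33.6% ± 7.30 against 10.9% ± 6.10 (SD, n = 3 each), with adjusted p of 0.214 and 0.152. A tile 41.1 kb downstream of the start of Cebpb, a myeloid transcription factor, was at 58.7%, 37.4% and 35.3% against 85.6%, 82.0% and 79.2% (adjusted p = 0.106). Bcl11b, a factor of T cell development, had a tile 87.9 kb upstream at 30.5% ± 10.5 against 64.5% ± 5.57 (SD, n = 3 each). Near the tumour suppressor Rassf1, a tile 3.41 kb upstream was at 3.06%, 22.1% and 19.7% against 33.8%, 63.5% and 48.1% (adjusted p = 0.146). Suz12 and Kmt2a, of the chromatin regulators, had the smallest leading differences, -16.9 and -12.3 points.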

How the data were processed

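MspI fragments of LSK DNA (150 to 400 bp) were bisulfite-converted and read for 50 bp from 1 end, per the labels' protocols. The submitters' processing notes name Bismark and the build mm9 (NCBIM37). For each CpG strand the deposited tables hold the coverage as a read count and, as a percent, the reads with C and with T, and every listed position has at least 10 reads. PCR copies count as reads.

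Reads were recovered from coverage and percent, strands were summed, and autosomal CpGs with at least 10 reads in all 6 libraries and none above the 99.9th coverage percentile were kept. Each CpG, tile or promoter window was fitted with a quasi-binomial model. Dispersion was moderated as in limma's squeezeVar and floored at 1, and F tests were adjusted by Benjamini-Hochberg over all features. The test was tested on simulated data. A permutation test compared library means.

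RefSeq promoter sequences (GRCm38.p6) were placed on mm9 by matching their CpG spacing to the listed positions, with no coordinate conversion. This used 11319 promoters of 9954 genes, and reversed spacings placed 34 where true ones placed 9560, and 28 where true ones placed 1760 between placed neighbours. Promoter windows were centred on a gene's most upstream placed start, and tile distances run from the tile centre to the nearest placed start.

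Named tiles and promoters were the 10 called with the largest fall and rise, with at least 5 CpGs and no overlap, and runs of adjacent called tiles. For listed genes, up to 2 per list were considered. Members, lists and rules were chosen with earlier results of these data known. Versions were limma 3.58.1 in R 4.3.3, and numba 0.67.0, pandas 2.3.3, SciPy 1.17.1 and NumPy 2.4.6 in Python 3.11.15. Chromosome 18 has no placed promoters here.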

Additional observations from a re-analysis of the deposited data

Results flagged for a closer look

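Values outside the main measurement stood out in 2 places. Tet2 knockout replicates 1 and 2 listed 360 and 251 positions on the Y chromosome, where the other 4 libraries of the comparison listed 2 to 18. Of autosomal CpGs with at least 20 reads in every leukemic library and none in any Tet2 knockout library, 235 of 587 lay on chromosome 3, and of those read in the Tet2 knockout only, 139 of 476 did, where chromosome 3 holds 4.45% of the tested CpGs.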

How the results depend on the processing

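The direction of the mean and of its 3 CpG classes was the same under every alternative run, with -3.10 to -2.42 points for the mean over all CpGs when 1 library was left out. CpG calls stayed at 0 in the alternatives except 42900 by Fisher's exact test on pooled reads, which ignores replicate spread, and 431 in a fit on all 12 libraries. Tile calls were 17117 and 6225 in these, 337 with tiles of 2000 bp, 101 with at least 5 CpGs per tile, 26 with strands apart, 11 at equal coverage, 8 with tiles of 500 bp and 0 with limma. They included rises, of which the main test called 0: 805 by Fisher's test, 128 with 12 libraries, 6 with tiles of 2000 bp, 4 with at least 5 CpGs, and 1 each at a coverage minimum of 20, with no high-coverage filter and without chromosome 3. Leaving out 1 library gave 0 tile calls, 438 to 702 higher tiles without overlap and 0 to 1 promoter calls. Further exclusions were chosen after seeing the data. Without the libraries with Y chromosome positions, and without leukemic replicate 3 and Tet2 knockout replicate 2, which hold most CpGs at 100%, tile calls were 0, and higher tiles without overlap 1353 and 660. Non-overlap is easier to reach with fewer libraries. Promoter calls were 0 with windows of 500 bp and with limma. With the replicate block 0 tiles and 0 promoters were called, against 57 and 3, and the mean difference was -2.78 points with an exact sign-flip p of 0.25. Whether replicate numbers pair the samples is not known. Same-numbered libraries had correlations of deviations of 0.0182, 0.00451 and -0.00479, and differently numbered ones of -0.0160 to 0.0110. Correlations near 0 cannot exclude a shared batch or litter, so the block fit is not set aside. The cause of these changes was not tested. The 10 named tiles kept their direction in the 17 or 18 alternatives that gave them a value, and each lost its call in 10 to 13 of these. Tiles of 500 and 2000 bp gave them none, nor did a coverage minimum of 20 for chr6:88070000-88070999. With 3 libraries a group, single CpGs limit what can be called, and coverage without molecular identifiers overstates the molecules read.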
